A study of Mus musculus with 4 samples.

Results

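Semaphorins, plexins and neuropilins were examined in RNA-seq counts of telencephalic tissue from mouse embryos at embryonic day 13 (E13). The genes were taken by symbol, as every row named Sema3 to Sema7 with a letter, Plxna to Plxnd with a number, Nrp1 or Nrp2. This gave 31 of the 27293 genes in the table of all 4 libraries, namely 20 semaphorins, 9 plexins and 2 neuropilins. All animals were C57BL/6. The WT group holds 2 libraries of genotype WT, and the cKO group holds 2 libraries of genotype STINGf/f;Nestin-Cre, in which Cre recombinase under the Nestin promoter deletes floxed STING in neural progenitors and the cells they produce. Vessel, blood and meningeal cells of the same tissue are not of that lineage. The sample titled 2-3nes is labelled WT and called WT 2 here, and the labels do not say whether it carried Nestin-Cre or whether an embryo or a pool gave each library. The comparison asks which of these genes differ in RNA level when STING is deleted, in a study that followed the production and placement of cortical neurons.

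Semaphorins are guidance proteins that share a sema domain, and plexins are the receptors that carry their signal into the cell through a domain acting on small GTPases. Class 3 semaphorins are secreted and mostly need a neuropilin, which binds the ligand while an A-type plexin signals. Classes 4, 5 and 6 span the membrane and bind plexins directly, and Sema7a is held by a lipid anchor and binds Plxnc1. In the developing forebrain these proteins repel or attract growing axons, steer interneurons on their way to the cortex and orient migrating pyramidal neurons. Neuropilins also bind vascular endothelial growth factors (VEGF), which guide vessels into the same tissue.

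Of the 31 genes, 30 had enough reads to be tested, and Sema3d alone was called different between the groups, on a p-value before adjustment. Its adjusted p by edgeR was 0.9999, and it passed the read filter only through the WT libraries, the group where it was higher. Its RNA was lower in cKO, with a fitted ratio of cKO to WT of 0.230. None of the 8 tested plexins and neither neuropilin was called. The other 29 tested members had log2 fold changes between -0.43 and 0.15, and 23 of them lay within 0.2 of 0 on that scale. The 2 cKO libraries also differed from each other, with 7 members lower and 5 higher in cKO 2 than in cKO 1, shares (23.3% and 16.7%) near those of all genes tested (22.1% and 17.5%).

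Facts of the libraries come first because they touch these results. Counts on genes summed to between 17209654 and 18533391 per library, so that the floor, the level of 3 counts that a gene with 0 counts may still have, lay at 0.162 to 0.174 CPM (counts scaled to library size). STING itself, listed as Tmem173, had 20 and 19 counts in the WT libraries against 18 and 22 in the cKO libraries, so this gene-level count did not separate the labels and the genotype is taken from them. A gene-level count adds reads inside and outside the floxed part and from all cells of the tissue. Over 4 genes of the Y chromosome WT 2 had 0 counts, against a sum of 1848 to 3002 in the other libraries. WT 1 held more RNA of meninges and mesenchyme (345 CPM summed over 15 markers, against 55.9 to 102 elsewhere) and of choroid plexus (79.0 CPM over 10 markers, against 14.4 to 16.8). The summed markers of the ventral telencephalon were lowest in cKO 1, at 737 CPM against 1092 to 1155. Markers of cortical progenitors and neurons, the labelled tissue, were all present, at 2341 to 2587 and 5570 to 6560 CPM.

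The sequences in front of the RefSeq starts of 3 class 3 genes on chromosome 5 show the base composition there. Sema3d is shown because it was the called member, and Sema3e and Sema3c because they are of the same class on the same chromosome and their groups overlapped. Each line gives 250 bases up to the RefSeq transcription start on GRCm38.p6, 5′ to 3′ on the plus strand. The genes as counted begin at 12383385 (Sema3d), 14025276 (Sema3e) and 17574281 (Sema3c). The Sema3e window thus ends at that start, the Sema3d window ends some way before it, and the Sema3c window lies inside the counted gene. Matches to CCAAT or GGGCGG on either strand are in capitals.
Sema3d (chr5:12382916-12383165): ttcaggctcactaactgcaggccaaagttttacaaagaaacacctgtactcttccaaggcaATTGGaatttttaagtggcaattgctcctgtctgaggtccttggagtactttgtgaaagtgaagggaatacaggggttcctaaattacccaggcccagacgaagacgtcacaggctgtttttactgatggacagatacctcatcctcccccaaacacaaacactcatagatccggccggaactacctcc
Sema3e (chr5:14025026-14025275): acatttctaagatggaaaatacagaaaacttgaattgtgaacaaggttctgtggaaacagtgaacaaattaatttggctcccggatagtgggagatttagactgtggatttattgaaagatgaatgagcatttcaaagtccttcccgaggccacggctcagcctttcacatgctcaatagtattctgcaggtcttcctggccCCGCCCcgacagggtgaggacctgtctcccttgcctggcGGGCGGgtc
Sema3c (chr5:17574566-17574815): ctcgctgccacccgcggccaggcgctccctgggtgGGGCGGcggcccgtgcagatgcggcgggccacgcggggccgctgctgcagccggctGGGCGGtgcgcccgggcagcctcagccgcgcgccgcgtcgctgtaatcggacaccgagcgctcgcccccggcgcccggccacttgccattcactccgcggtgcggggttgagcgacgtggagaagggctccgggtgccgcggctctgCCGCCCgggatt
The Sema3d window held 1 match to CCAAT and 0 to GGGCGG, with 46.8% G and C and 4 CG dinucleotides. The Sema3e window held 2 matches to GGGCGG, with a base composition close to that of Sema3d (48% G and C, 7 CG dinucleotides). The Sema3c window held 3 matches to GGGCGG, with 78.4% G and C and 39 CG dinucleotides. Of all 32851 windows of this length, 33.8% held CCAAT and 32.7% held GGGCGG. The table covers 26 of the 31 members with 37 windows, and 27 of those windows held GGGCGG, from 21 genes. The NF-κB consensus, searched on both strands because the study places NF-κB downstream of STING, matched in none of the 3 windows shown, in 3 of the 37 family windows (Plxna3, Sema4a and Sema4c) and in 7.25% of all windows. The palindrome bound by paired homeodomain factors, of which Alx4 is one, matched in 0 of the 37 and in 0.463% of all. A match, or its lack, is a description of the letters and not of binding.

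Levels are compared between genes as CPM per kilobase of annotated exon, averaged over the 4 libraries. Plexins led the order, with Plxnb2 at 49.8, Plxna3 at 39.2, Plxnb1 at 36.0 and Plxna2 at 32.5 CPM per kilobase. Plxnb2 and Plxnb1 are receptors of class 4 semaphorins, and the A-type plexins serve class 3 together with neuropilins and bind class 6 ligands on their own. Among the ligands, Sema6c (33.3) and Sema4c (28.6) stood highest, both membrane-bound. The secreted class 3 ligands lay between 0.0959 for Sema3d and 12.1 for Sema3f, so that Sema3d had the lowest level per kilobase of all semaphorins. Nrp2 (13.3 CPM per kilobase) exceeded Nrp1 (3.68). Plxnb3 had 2 and 4 counts (WT 1 and WT 2) against 0 and 2 (cKO 1 and cKO 2), at or near the floor, and was not tested. Plxnb2 (48.0 to 51.7 over the libraries) stood clear of all others. Below it the neighbours Plxna3 (36.9 to 41.6), Plxnb1 (35.2 to 38.0), Sema6c (27.4 to 40.0), Plxna2 (28.7 to 36.2) and Sema4c (25.9 to 30.3) each overlapped the next, as did Sema3f and Sema6d, so their order was not resolved.

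**Figure D1:**
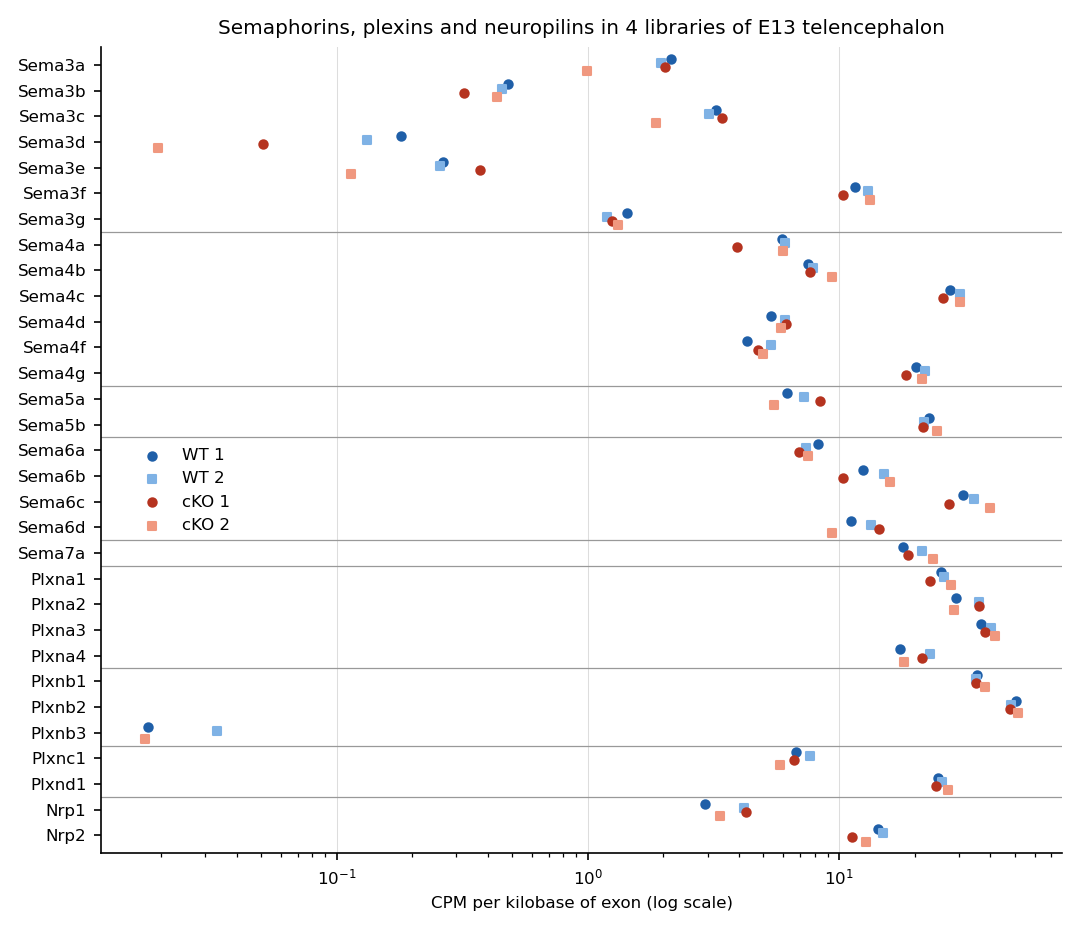
Level of each member in CPM per kilobase of exon on a log axis, with 1 point for each of the 4 libraries (WT in blue, cKO in red, replicate 1 as circles, replicate 2 as squares) and lines between the classes. Most plexins sit to the right, Plxnc1 in the middle, Sema3d and Plxnb3 to the far left, and the 2 red points of Sema3d lie below both blue points. Plxnb3 in cKO 1 is at 0 and has no point.

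Sema3d (ENSMUSG00000040254) encodes a secreted class 3 semaphorin known from axon guidance and the patterning of veins. It occupies chr5:12383385-12588948 of GRCm38 and is read from the plus strand. Reads numbered 27 and 21 (WT 1 and WT 2) against 8 and 3 (cKO 1 and cKO 2). The highest cKO library was thus below the lowest WT library, and cKO 2 stood at the floor. The normalized level was 1.35 ± 0.292 CPM over the WT libraries (SD, n = 2) and 0.303 ± 0.190 CPM over the cKO libraries (SD, n = 2). By edgeR's quasi-likelihood test Sema3d had a log2 fold change of -2.12 (standard error 0.60, unadjusted p 0.00785), and Benjamini-Hochberg adjustment over all 16145 genes tested left an adjusted p of 0.9999. A gene counts as called here when it passes the study's own thresholds, a 2-fold difference with p up to 0.05 before adjustment. On that rule 1 of 30 members was called (3.33%), which was lower in cKO, where 0.811% of all genes were called, 0.669% lower and 0.142% higher. Summed over the groups, 11 counts in cKO stood against 48 in WT, a depth-scaled ratio of 0.225, for which counting error alone gives an exact 95% interval (Clopper-Pearson) of 0.106 to 0.440. An exact permutation test, two-sided over 2 libraries a group, gave p = 0.333, the smallest that this design allows. Without WT 1 the log2 fold change was -1.89 and without cKO 2 it was -1.59, and the gene was called in neither fit. The call thus rested on both of these libraries. Because both cKO values lay below both WT values, leaving out a library could not reverse the direction. That the direction stayed the same is therefore no added support.

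Fewer cells that make Sema3d and less Sema3d RNA per cell cannot be told apart in whole tissue. Marker lists of other cells moved with the groups in part. Of 11 tested meningeal and mesenchymal markers 2 were called lower in cKO, and of 5 tested choroid plexus markers 4 were, against 0.669% of all genes tested. In Col1a1, Col1a2, Kcne2 and Otx2 among these called markers the groups overlapped. WT 1 was far above WT 2 in both sums. The meninges and mesenchyme sum was 74.3 CPM in WT 2 and 102 CPM in cKO 1, while Sema3d stood at 1.14 CPM in WT 2 and 0.437 CPM in cKO 1. In WT 1, the highest library of both, the values were 345 and 1.55 CPM, and in cKO 2, the lowest of both, they were 55.9 and 0.168 CPM. Sema3d and the meningeal sum thus had the same order apart from WT 2 and cKO 1. Of the 11 tested markers 1 (Foxc1, 9.09%) was lower in both cKO libraries than in both WT libraries, against 10.8% of all genes tested. Ogn, Foxc2 and Twist1 were lower in the same way but had too few reads to be tested. For choroid plexus the sums were 16.8 CPM in WT 2, 14.4 in cKO 1 and 15.3 in cKO 2, with Otx2 and Enpp2 the main contributors in these libraries. Of its 5 tested markers 2 (Htr2c and Aqp1, 40.0%) were lower in both cKO libraries than in both WT libraries, against 10.8% of all genes tested. Htr2c had 18 counts in WT 2 against 4 and 7 in the cKO libraries. Slc4a5 and Kl were lower in the same way but had too few reads to be tested. Folr1 was at 0 counts in WT 2 and Kcnj13 in cKO 2. The endothelial sum was lower in both cKO libraries, at 120 and 131 CPM against 174 in WT 1 and 140 in WT 2. For 4 of its 9 markers (44.4%, against 10.8% of all genes tested) the groups stood apart with cKO lower. For the rest, among them Cldn5 and Pecam1, the groups overlapped. The mural cell sum was 249 and 193 CPM in the WT libraries, and 204 and 214 CPM in the cKO libraries. The part of meningeal, choroid plexus or vessel cells in the Sema3d difference was not tested.

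**Figure D2:**
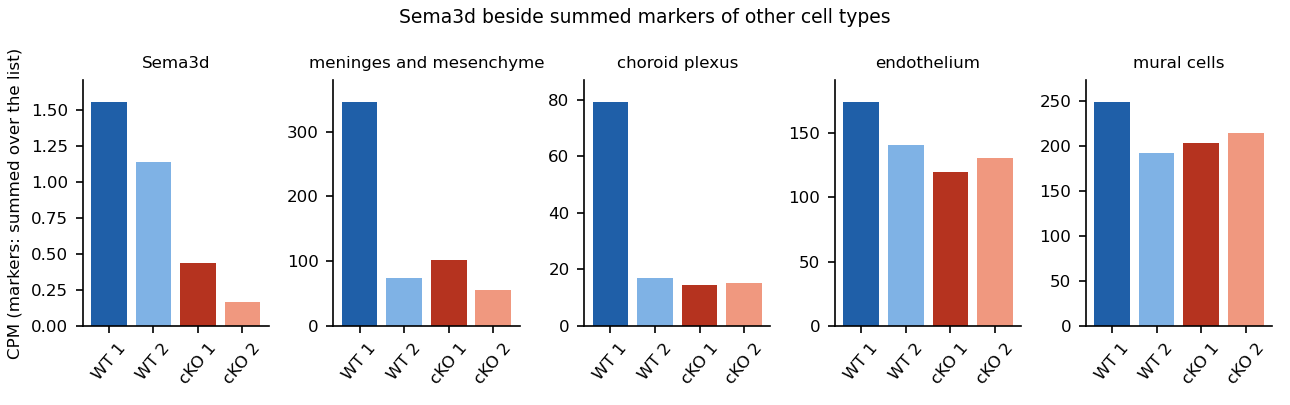
Sema3d in CPM beside the summed CPM of markers of meninges and mesenchyme (15 genes), choroid plexus (10), endothelium (9) and mural cells (7), as 1 bar for each library on axes that start at 0. Sema3d is high in both WT libraries, whereas the meningeal and choroid plexus sums are high in WT 1 only.

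The other class 3 ligands were not called. Sema3f, a repellent that acts through Nrp2 and the most abundant of the class, had 1050 and 1252 counts (WT 1 and WT 2) against 990 and 1237 (cKO 1 and cKO 2). Its replicates spread as widely as its groups, with a log2 fold change of -0.06 (standard error 0.18, unadjusted p of 0.752). Sema3a, which repels axons through Nrp1 and orients cortical neurons, had 515, 499 and 515 counts in WT 1, WT 2 and cKO 1 but 247 in cKO 2. Sema3c, an attractant for cortical axons, had 402 and 400 counts in WT, 445 in cKO 1 and 239 in cKO 2. Sema3e, which can bind Plxnd1 without a neuropilin, had 43 and 44 counts in WT, 63 in cKO 1 and 19 in cKO 2. In these 3 genes cKO 1 stood at or above the WT libraries in counts and cKO 2 was the lowest library. The log2 fold change of Sema3a was -0.43 (standard error 0.31, unadjusted p of 0.198), and it was -1.03 without cKO 1 (unadjusted p of 0.000442, which made it called) and 0.00 without cKO 2. Sema3b had 40 counts in each WT library against 28 and 37 in the cKO libraries, and Sema3g had between 100 and 113 in all libraries.

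No membrane-bound semaphorin was called. Sema5a and Sema6d are treated with the cKO libraries further on. Sema4c, a ligand of Plxnb2, had 2212 and 2565 counts (WT 1 and WT 2) against 2175 and 2490 (cKO 1 and cKO 2), with a log2 fold change of -0.05 (standard error 0.15, unadjusted p of 0.775). Sema5b, which carries thrombospondin repeats beside its sema domain, had 2796 and 2829 counts in the WT libraries against 2808 and 3095 in the cKO libraries, with a log2 fold change of 0.06 (standard error 0.15, unadjusted p of 0.719). For both genes the groups overlapped. Sema6c had 3211 and 3780 counts in the WT libraries, 2980 in cKO 1 and 4240 in cKO 2, and the cKO libraries enclosed the WT libraries (log2 fold change 0.04, standard error 0.20, unadjusted p of 0.857). Sema7a, the anchored ligand, had 1028 and 1303 counts (WT) against 1132 and 1396 (cKO, log2 fold change 0.11, standard error 0.18, unadjusted p of 0.566). Within class 4, the log2 fold changes ran from -0.28 for Sema4a to 0.15 for Sema4b. Sema4a, known in immune cells and in axon growth, had 388 counts in cKO 1 against 558, 606 and 576 in WT 1, WT 2 and cKO 2, so that cKO 1 alone was low. Sema4d, a ligand of Plxnb1, and Sema4f and Sema4g had log2 fold changes between -0.08 and 0.07. Among class 6, which includes Sema6a, a ligand of Plxna2 and Plxna4, values ran from -0.11 to 0.04.

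No plexin was called between the groups. Plxna3 had 5051 and 5823 counts (WT) against 5504 and 5860 (cKO), with a log2 fold change of 0.05 (standard error 0.15, unadjusted p of 0.741). Plxnb2, which supports progenitor division and neuronal migration in the brain, had 6816 and 6903 counts (WT) against 6783 and 7133 (cKO), with a log2 fold change of 0.01 (standard error 0.15, unadjusted p of 0.971). Plxnd1, a receptor prominent on vessels, had 3136 and 3468 counts (WT) against 3262 and 3550 (cKO, log2 fold change 0.03, standard error 0.15, unadjusted p of 0.833). The groups overlapped in each. Plxna1, Plxna2, Plxna4 and Plxnb1 had log2 fold changes between -0.04 and 0.05, with overlapping groups too. Plxnc1, the receptor of Sema7a, had 982 and 1178 counts (WT 1 and WT 2) against 1013 and 872 (cKO 1 and cKO 2). Scaled to depth, the groups of Plxnc1 did not overlap and cKO was the lower, with a log2 fold change of -0.21 (standard error 0.16, unadjusted p of 0.237).

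Nrp2, the coreceptor of Sema3f, had 2954 and 3261 counts (WT 1 and WT 2) against 2447 and 2701 (cKO 1 and cKO 2). In CPM the level was 174 ± 5.10 over the WT libraries (SD, n = 2) and 142 ± 12.3 over the cKO libraries (SD, n = 2). The cKO values were both under the WT values, with a log2 fold change of -0.28 (standard error 0.15) and an unadjusted p of 0.0905, the lowest after Sema3d. Nrp1, the coreceptor of Sema3a and of VEGF, had 500 and 755 counts (WT 1 and WT 2) against 761 and 587 (cKO 1 and cKO 2). The groups of Nrp1 overlapped (log2 fold change 0.09, standard error 0.22, unadjusted p of 0.688). Nrp2 is expressed by interneurons on their way from the ventral telencephalon, whose summed markers were lowest in cKO 1 (737 CPM), the library with the lowest Nrp2 level. In cKO 2 that sum was 1146 CPM, within the range of WT, and Nrp2 stood at 151 CPM, below 170 in WT 1 and 177 in WT 2. On the same list Gad1 and Gad2, which make the transmitter of interneurons, stood apart with cKO lower. These are 2 of 10 markers (20.0%), against 10.8% of all genes tested. Gad1 was at 79.8 and 73.4 CPM in the WT libraries against 57.5 and 54.9 CPM in the cKO libraries (log2 fold change -0.45, unadjusted p of 0.0179), and Gad2 at 116 and 116 against 97.6 and 99.2 CPM (unadjusted p of 0.129). The other 8 markers overlapped between the groups. The part of interneuron number in the Nrp2 values was not tested.

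Over the family, the groups stood apart with cKO lower for 4 of 30 tested members (13.3%), namely Sema3d, Sema3b, Nrp2 and Plxnc1, against 10.8% of all genes. They stood apart with cKO higher for 0 members, against 11.0% of all genes. Plxnc1 and Sema3b were singled out after their values were seen. Of the 30, 18 were lower in cKO to any extent (60.0%, against 52.1% of all genes), and the median log2 fold change was -0.04, against -0.01 over all genes tested. After adjustment edgeR gave 0 members and 0% of all genes under 0.05. Before adjustment it gave 1 member and 1.23% of all genes up to 0.05, and DESeq2 gave 0 members after and 1 before adjustment.

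**Figure D3:**
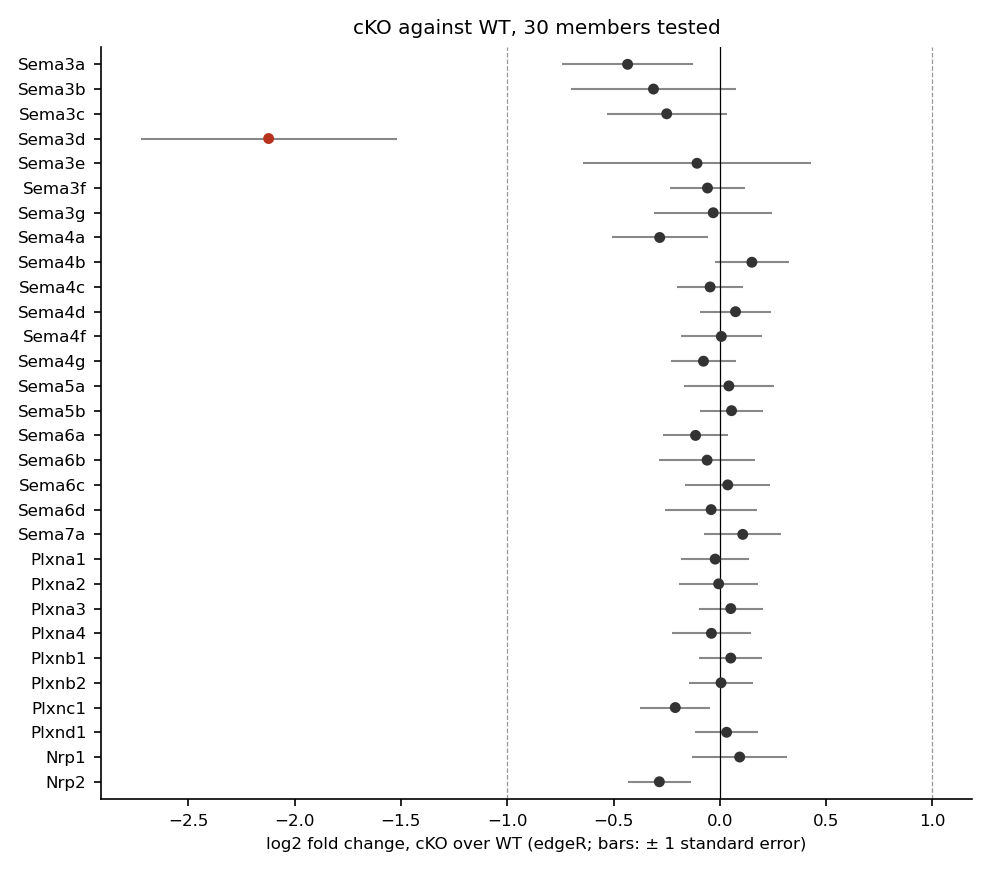
Log2 fold change of cKO over WT for the 30 tested members from edgeR, with bars of 1 standard error and dashed lines at a 2-fold change. Sema3d, in red, is the only member past a dashed line, and the other 29 lie between -0.43 and 0.15.

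The 2 cKO libraries differed from each other in several members that were not called between the groups. On log2 ratios with a pseudocount of 1 CPM, 7 of 30 members (23.3%) were lower in cKO 2 than in cKO 1 by at least 0.32, against 22.1% of all genes tested, and 5 (16.7%) were higher by as much, against 17.5%. The shares were thus close to those of all genes. The 7 lower members were Sema3a, Sema3c, Sema3e, Sema5a, Sema6d, Plxna2 and Nrp1, and the 5 higher members were Sema3f, Sema4a, Sema6b, Sema6c and Sema7a. As plain ratios of CPM, Sema3e was lowest, with a ratio of cKO 2 to cKO 1 of 0.309, followed by Sema3d at 0.384, Sema3a at 0.491 and Sema3c at 0.550. Sema3d is not among the 7 because the pseudocount of 1 CPM exceeds its level in both cKO libraries. With a pseudocount of 0.1 CPM it was lower and Sema3b higher by the same limit, which made 8 lower members (26.7%, against 25.4% of all genes) and 6 higher members (20.0%, against 21.0%). Sema5a, a membrane-bound ligand, had 2020 and 2499 counts in the WT libraries, 2864 in cKO 1 and 1839 in cKO 2, and Sema6d, a ligand of Plxna1, had 2053 and 2597 in the WT libraries, 2789 in cKO 1 and 1777 in cKO 2. Their ratios were closer to 1 (0.657 and 0.652), and Sema6b (1.54) and Sema4a (1.52) lay at the other end. The WT libraries were also unlike in some members. By the same limit, with a pseudocount of 1 CPM, WT 2 was below WT 1 for 0 of 30 members (14.4% of all genes) and above it for 2 (7.66% of all genes), Nrp1 with a ratio of WT 2 to WT 1 of 1.43 and Plxna4 with 1.32.

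Base composition and gene length of the 7 lower and the 5 higher members lay in separate ranges, and the 18 members between them covered most of both. The longest annotated transcripts of the 7 held 40.8% to 49.8% G and C, those of the 5 held 56.5% to 63.5%, and those of the other 18 held 39.2% to 60.8%. The 7 genes span 145 to 578 kb, the 5 span 13.6 to 29.0 kb and the 18 span 9.71 to 444 kb, among them Plxna4, Sema3d and Plxnc1 at 444, 206 and 154 kb. Coding sequence from the middle of 1 gene of each kind shows the contrast, with G and C in capitals, given as 120 bases 5′ to 3′ of GENCODE M21 transcripts, positions counted from the A of the start codon.
Sema3a, coding bases 1099 to 1218: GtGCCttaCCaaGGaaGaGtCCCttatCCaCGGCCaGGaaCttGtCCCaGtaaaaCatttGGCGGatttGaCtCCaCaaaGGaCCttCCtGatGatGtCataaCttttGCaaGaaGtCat
Sema6c, coding bases 1384 to 1503: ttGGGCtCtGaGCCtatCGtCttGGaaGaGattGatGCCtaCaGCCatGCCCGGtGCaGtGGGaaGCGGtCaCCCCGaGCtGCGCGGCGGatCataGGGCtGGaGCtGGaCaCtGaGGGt
These stretches held 45.8% G and C in Sema3a and 61.7% in Sema6c, against 45.8% and 63.1% over the whole coding sequence. Stretches taken in the same way from Sema3e and Sema6b, not printed, differed less, at 51.7% and 57.5%. Their whole coding sequences held 48.9% and 63.4%. Across the 30 members, the log2 ratio of cKO 2 to cKO 1 was positively related to transcript GC content (Pearson's r of 0.86, Spearman's rho of 0.79) and negatively to the log2 of gene span (r of -0.78, rho of -0.74). Across all 16120 tested genes with an annotated transcript, r was 0.61 for GC content, and across all 16145 genes it was -0.24 for span. Between the WT libraries r with GC content was 0.13 over the members. These are descriptions across genes measured in the same libraries, and genes are not independent replicates. Whether GC content or gene span sets these ratios was not tested.

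**Figure D4:**
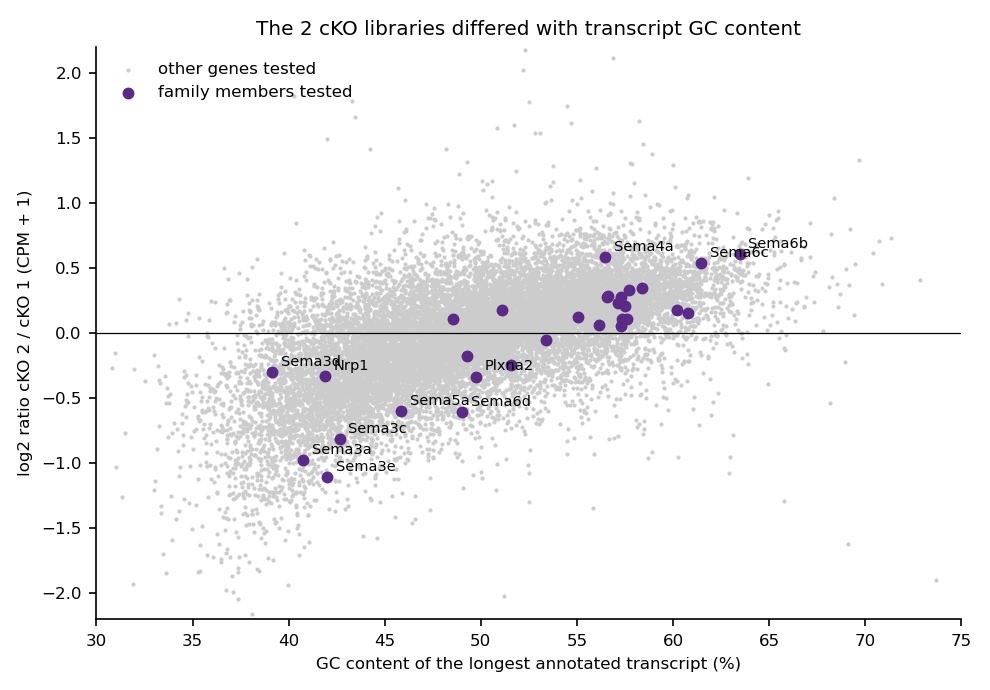
Log2 ratio of cKO 2 to cKO 1, on CPM with a pseudocount of 1, against the GC content of the longest annotated transcript for the 30 tested members (purple) and all other genes tested (grey, 12 genes outside the axes). Sema3a, Sema3c and Sema3e lie at the low end of both axes and Sema6b and Sema6c at the high end, along the band of all genes.

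Sema3d has the lowest transcript GC content of the family, 39.2%, and its counts of 8 in cKO 1 and 3 in cKO 2 follow the same direction. With offsets corrected for GC content and transcript length in each library, the log2 fold change of Sema3d was -1.95 (unadjusted p of 0.00621), that of Sema3a was -0.30 (unadjusted p of 0.118), and 1 member was called, as before.

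Genes that work with the family were taken as 2 lists. Of 47 coreceptors and effectors, among them the cell adhesion protein L1cam, the collapsin response mediators Crmp1 and Dpysl2 to Dpysl5, the Mical oxidases and the Rnd GTPases, 46 were tested and 0 were called, with edgeR as with DESeq2, and edgeR gave none a p up to 0.05 before adjustment. Their median log2 fold change was 0.00, and the groups stood apart with cKO lower in 5 (10.9%) and higher in 3 (6.52%), near or under the shares of all genes. The smallest p belonged to Pak3, a kinase that acts on the actin cytoskeleton, with 1581 and 1623 counts in WT, 1552 in cKO 1 and 880 in cKO 2 (log2 fold change -0.42, standard error 0.24, unadjusted p of 0.122). Itga1, a subunit of an integrin, came next, with 235 and 192 counts in WT, 211 in cKO 1 and 112 in cKO 2 (unadjusted p of 0.228). In both genes cKO 2 was far below the other libraries, as for Sema3a.

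The VEGF ligands and receptors share neuropilins with the class 3 semaphorins. Of 9 listed, 8 were in the table and all 8 were tested. With edgeR and DESeq2 alike 0 were called. Before adjustment edgeR gave 1 of the 8 (12.5%) a p up to 0.05, against 1.23% of all genes. Flt1, a VEGF receptor of endothelial cells, had 484 and 366 counts (WT) against 274 and 281 (cKO), with a log2 fold change of -0.64 (standard error 0.22, unadjusted p of 0.0217). Kdr, the main signalling receptor of VEGF, had 902 and 644 counts (WT) against 638 and 444 (cKO, log2 fold change -0.54, standard error 0.25, unadjusted p of 0.0623). In Flt1 the groups stood apart, whereas in Kdr only the gap between WT 2 (35.0 CPM) and cKO 1 (34.9 CPM) parted them. Over the 8 genes, cKO was the lower in these 2 (25.0%, against 10.8% of all genes). It was the higher in 1 (12.5%, against 11.0%), Vegfd, with 7 to 12 counts per library. Vegfb, Vegfc and Flt4 had log2 fold changes of 0.15, 0.14 and 0.01, and the median of the list was -0.01. The choice of Kdr, Vegfa and Vegfd was made after seeing their values. The endothelial marker sum was lower in both cKO libraries as well (Flt1 and Kdr are not on that list). Vegfa had 2931 counts in WT 1 and 1612 to 1801 in the other libraries, so that its level was high in WT 1 alone. The part of endothelial cell number in these values was not tested.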

How the data were processed

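RNA-seq counts of 4 libraries (2 WT, 2 cKO) were analysed. The authors extracted total RNA with TRIzol, built Illumina libraries from 2 µg each and deposited raw counts of reads per gene without normalization, 1 column per library. The submitters' processing notes name TopHat2 2.0.12, Bowtie2 2.2.3, HTSeq 0.6.0 and the build mm9, whereas gene positions in the table match GENCODE M21 (GRCm38) within 1 base at a start or end for 97.3% of 27232 genes and for all 31 members. Whether counting used strand is not given in the sources used here. Exons of Plxna1, Plxna4, Plxnb1 and Sema4c overlap an antisense gene (0.780% to 10.7% of exonic bases), so reads there cannot be told apart. In the table, 11 blank rows (0.0403%) were left out. The counts of 30 members are repeated, identically, in the authors' table of cKO 1 and WT 1, and the authors' fold changes, p-values and scaled values were not used.

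The count test was the quasi-likelihood test of edgeR 4.0.16 (R 4.3.3), with group as the only term, TMM factors and the filterByExpr filter, which kept 16145 genes. CPM are TMM-normalized. Nothing states that replicates are separate embryos, so p-values measure the spread between these libraries only. Alternatives were RLE and upper-quartile normalization, 2 other filters, DESeq2 1.42.0, a replicate block and leaving out each library. Offsets corrected for GC content and transcript length (loess, span 0.3) were added after the data were seen. Level per kilobase used the union of annotated exons, and transcript GC content that of the longest transcript. The steps were tested on simulated counts.

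The members and lists were chosen with earlier results of these data known. All 31 members are accounted for. Values are given in full for members with p up to 0.05 before adjustment, members whose groups did not overlap and differed by at least 0.32 on the log2 scale, and the highest member of each class per kilobase, and of the lists, genes with p up to 0.05 or else the 2 with the smallest p.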

Additional observations from a re-analysis of the deposited data

How the results depend on the processing

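The call of Sema3d (1 member called, 1 at an unadjusted p of at most 0.05) was the same with RLE or upper-quartile normalization, without a filter beyond 1 count in any library, with DESeq2 and with the corrected offsets, where its log2 fold change ran from -2.15 to -1.95. All these fits use the same few reads of a gene that passed the main filter only through the WT libraries. Their agreement is therefore no separate support for the call. With at least 10 counts required in every library the gene was not tested and 0 members were called on either criterion. With each library left out in turn, which assumes that a lone library varies like the other group, 0 to 2 members were called at 2-fold and 0 to 4 at an unadjusted p of at most 0.05. On the second criterion these were 0 without WT 1, Sema3d without WT 2, Sema3a, Sema3c, Sema3d and Sema6d without cKO 1, and Nrp2, Sema4a, Sema5a and Sema6b without cKO 2. At 2-fold they were Sema3d without WT 2 and Sema3a and Sema3d without cKO 1. No member had an adjusted p under 0.05 in any of the 11 alternatives, and no coreceptor, effector or VEGF gene was called at 2-fold. The replicate numbers are shared by the groups without a stated pairing, and deviations of same-numbered libraries correlated at 0.139 over 16145 genes. With the replicate block 2 members had an unadjusted p of at most 0.05, Sema3d (log2 fold change -2.18) and Sema3a (-0.51), and the count called at 2-fold was 1.

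Signs of small changes were not stable. With the corrected offsets the log2 fold changes of Plxna1 (0.004), Plxna2 (0.065), Plxna4 (0.026) and Sema6d (0.01) turned positive. With a library left out, the sign changed for 22 members. Their log2 fold changes ran over the ranges Nrp1 -0.14 to 0.39, Plxna1 -0.15 to 0.11, Plxna2 -0.18 to 0.17, Plxna3 -0.009 to 0.13, Plxna4 -0.22 to 0.18, Plxnb2 -0.035 to 0.06, Plxnd1 -0.035 to 0.11, Sema3a -1.03 to 0.003, Sema3c -0.74 to 0.13, Sema3e -1.19 to 0.51, Sema3f -0.23 to 0.11 and, for the rest, Sema3g -0.14 to 0.10, Sema4c -0.15 to 0.066, Sema4d -0.018 to 0.18, Sema4f -0.14 to 0.19, Sema4g -0.17 to 0.026, Sema5a -0.29 to 0.33, Sema5b -0.022 to 0.14, Sema6b -0.39 to 0.22, Sema6c -0.25 to 0.28, Sema6d -0.38 to 0.25, Sema7a -0.057 to 0.27. For the other 8 (Nrp2, Plxnb1, Plxnc1, Sema3b, Sema3d, Sema4a, Sema4b and Sema6a) it was the same in all 4 fits. In Nrp2, Plxnc1, Sema3b and Sema3d the groups did not overlap, so leaving out a library could hardly change the sign. A pseudocount of 0.1 CPM moved 0 of 60 single-library log2 ratios beyond counting error, which is wide for low counts, yet the ratio of cKO 2 to cKO 1 went from -0.30 to -1.004 for Sema3d and from 0.28 to 0.41 for Sema3b, and the 7 lower and 5 higher members became 8 and 6. Without length scaling 25 of 31 members changed rank in level. The cause of these shifts was not tested. Depth limits Sema3d, Sema3e, Sema3b and Plxnb3, the 4 members with under 100 counts in a library.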
